A study of Mus musculus with 6 samples.

Results

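The genes described are the Wnt ligands, their Frizzled and other receptors, the R-spondins with their LGR receptors, and a few feedback targets of the pathway, 42 genes in all. They were measured on expression arrays in cultured bone marrow stem cells (BMSC) before injection and after recovery from a stroke infarct. A gene was read from the probe set (a group of short probes on the array) that is annotated to its symbol alone and has the highest mean log2 signal over the 6 arrays. On this rule 41 of the 42 genes were measured, of 18193 genes in all, and Tcf7 is not analysed here.

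Naïve Large T BMSC, the parent line, were grown from the marrow of transgenic Immortomouse mice, whose cells make a temperature-sensitive form of the SV40 large T antigen and so go on dividing when grown at 33°C. The iLarge T BMSC came from the same transgenic strain and were given into a vein of C57BL/6 mice 24 h after a 60-minute occlusion of the middle cerebral artery. They were taken from the infarcted hemisphere 14 days later by their growth at 33°C. Both groups therefore carry the large T antigen, both were passaged 3 times before freezing, and both were measured in culture and not in the brain. Each group has 3 arrays, with the odd numbers 1, 3 and 5 given to naïve arrays and the even numbers 2, 4 and 6 to iLarge T arrays. Each array held RNA pooled from 3 sets of naïve cells or from 3 hemispheres, so the spread between arrays is that between pools.

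Wnt proteins are secreted lipid-modified ligands that bind Frizzled receptors. With the co-receptors LRP5 and LRP6 they stabilise beta-catenin, which enters the nucleus and turns on target genes together with the TCF/LEF factors, among them the inhibitors Axin2 and Nkd1 that feed back on the pathway. Some ligands act without beta-catenin through ROR1, ROR2 or RYK, and R-spondins bound to LGR4, LGR5 or LGR6 keep Frizzleds at the cell surface. In bone marrow stromal cells the pathway is best known for its part in bone formation and in the support of blood stem cells.

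The promoters of the members that changed are shown first, since these members were called together. The sequences are the 250 bases before the RefSeq start of each gene on GRCm38.p6, 5′ to 3′ on the strand of the gene. Capitals mark GC boxes (GGGCGG on either strand) and matches to the TCF/LEF letters CTTTGAA with its variant CTTTGAT, and CTTTGTA with its variant CTTTGTT, on either strand, and a position can match only 1 of these 4. A window was found for 5 of the 6 called members, and for Rspo2 none is printed. Fzd7, a bright receptor gene whose groups did not overlap, is added because its window holds a TCF/LEF match.
Wnt2, chr6:18030446-18030695, minus strand: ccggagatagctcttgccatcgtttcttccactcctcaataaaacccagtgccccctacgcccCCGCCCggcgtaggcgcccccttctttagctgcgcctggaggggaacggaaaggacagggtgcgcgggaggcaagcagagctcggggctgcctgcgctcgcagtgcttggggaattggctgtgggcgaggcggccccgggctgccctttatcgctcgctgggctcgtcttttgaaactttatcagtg
Ror2, chr13:53286125-53286374, minus strand: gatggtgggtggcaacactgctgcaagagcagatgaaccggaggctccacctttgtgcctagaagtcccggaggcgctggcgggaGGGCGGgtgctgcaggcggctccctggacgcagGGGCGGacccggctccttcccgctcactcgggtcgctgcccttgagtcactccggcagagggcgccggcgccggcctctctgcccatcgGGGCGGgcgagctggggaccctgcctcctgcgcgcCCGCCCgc
Nkd2, chr13:73847632-73847881, minus strand: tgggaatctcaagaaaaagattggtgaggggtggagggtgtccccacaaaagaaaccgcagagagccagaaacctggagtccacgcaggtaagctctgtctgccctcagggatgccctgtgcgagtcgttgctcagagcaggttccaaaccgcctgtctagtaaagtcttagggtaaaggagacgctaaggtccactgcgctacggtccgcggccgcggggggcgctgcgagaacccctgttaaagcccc
Lgr4, chr2:109917397-109917646, plus strand: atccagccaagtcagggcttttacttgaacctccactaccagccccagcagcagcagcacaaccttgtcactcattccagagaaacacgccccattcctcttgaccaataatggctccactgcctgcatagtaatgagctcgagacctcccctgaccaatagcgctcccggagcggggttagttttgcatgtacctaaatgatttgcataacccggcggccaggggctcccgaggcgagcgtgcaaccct
Fzd4, chr7:89404116-89404365, plus strand: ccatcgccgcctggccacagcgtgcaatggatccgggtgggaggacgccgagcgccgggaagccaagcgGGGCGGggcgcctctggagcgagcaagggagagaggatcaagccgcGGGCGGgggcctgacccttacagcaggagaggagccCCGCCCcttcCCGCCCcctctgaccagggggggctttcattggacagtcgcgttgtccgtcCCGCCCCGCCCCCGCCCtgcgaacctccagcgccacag
Fzd7, chr1:59481897-59482146, plus strand: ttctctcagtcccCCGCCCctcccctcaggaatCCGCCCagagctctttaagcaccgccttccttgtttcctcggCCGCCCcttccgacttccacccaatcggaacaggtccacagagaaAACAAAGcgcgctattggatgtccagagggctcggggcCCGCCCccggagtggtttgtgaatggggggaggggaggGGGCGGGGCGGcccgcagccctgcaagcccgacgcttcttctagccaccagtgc

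None of the 5 windows of called members, counted as 0 of 5, held the TCF/LEF letters. The window of Fzd7 held CTTTGTT on the reverse strand, beginning at base 121 of the window. Over all 35 windows of 29 members, 4 windows (11.4%) held 1 of the motifs, against 14.8% of 32817 mouse windows of the same length. The other 3 matches lay in windows of Wnt5b, Wnt11 and Lef1. GC boxes were found in 32.7% of all windows. The windows of Wnt2, Ror2 and Fzd4 held 1, 4 and 7 of them, and those of Nkd2 and Lgr4 held 0.

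Of the 41 members, 5 were higher and 1 was lower in iLarge T BMSC. The ligand gene Wnt2, the receptor genes Ror2 and Lgr4, the R-spondin gene Rspo2 and the feedback inhibitor gene Nkd2 rose, and the Frizzled gene Fzd4 fell. A call needed a Benjamini-Hochberg adjusted p under 0.05 from limma over all 45037 probe sets together with a difference of 2-fold or more. The 6 called members make up 14.6% of the 41, beside 6.80% of the 18193 genes (3.54% higher and 3.26% lower). The arrays of the groups did not overlap for 12 members (29.3%), beside 27.6% of all genes. Of all 41 members, 11 were higher without overlap (2645 of all 18193 genes, 14.5%) and 1 was lower without overlap (2377 of all genes, 13.1%). The median log2 fold change was 0.88 over the members and 0.06 over all genes. Without naïve replicate 1 the members' median was 0.39, and with signals raised to the 40th percentile of their array it was 0.33, beside 0.17 over all genes. limma without its intensity trend kept the calls of Nkd2 and Ror2 and lost the other 4. After adjustment the methods' t-test, as rerun here on the deposited signals, called 0 members on log2 or linear signals.

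Signals are MAS5 intensities on a linear scale, scaled by the authors to a trimmed mean of 2500 per array, with medians of 308 to 450. Naïve replicate 1 correlated with the other naïve arrays at 0.829 and 0.831 (log2 signals across probe sets, which are not independent), while those correlated with each other at 0.892. It lay outside the range of the other naïve arrays for 36 of the 41 members, 18 below and 18 above, and for 7186 (below) and 7926 (above) of all 18193 genes. All 9 measured stromal markers were above the 40th percentile of the array on all 6 arrays, with Pdgfrb called higher and Vcam1 lower, and 7 of 7 proliferation genes were called lower in iLarge T BMSC, with summed signals of 197050 to 249757 in naïve and 32888 to 54400 in iLarge T. Of 7 endothelial markers, 2 were called higher and 1 lower (Tek, 5703 to 9080.2 in naïve and 458 to 1300.3 in iLarge T arrays). Cdh5 (2211, 2787 and 23797) and Emcn (2857, 2917 and 15858) were higher on every iLarge T array and near background on all naïve arrays. The endothelial sum, most of it Tek in naïve arrays, was 50820 on iLarge T replicate 6 and 6652 to 9911 on the others. Of 10 macrophage markers 1 was called, higher (Csf1r, a call kept only without naïve replicate 1 or iLarge T replicate 4 when 1 array was left out). The macrophage sum reached 64621 on iLarge T replicate 6 against 2681 to 11029 on the others, where the microglial and macrophage gene C1qa was at 9.15 to 23.9. On naïve replicates 3 and 5 most of the sum (11029 and 9696) was Cd68 (9873 and 8396). Of 7 neuronal markers 2 were called higher (Nefm, and Tubb3, whose call held only without naïve replicate 1 when 1 array was left out). The neuronal sums were 1471 to 4053 in naïve and 4783 to 7373 in iLarge T arrays. Of 8 glial markers 0 were called by limma or the methods' t-test, with 1 at an unadjusted limma p under 0.05. The glial sum was 6744 on iLarge T replicate 6 and 1463 to 2192 on the others. Without iLarge T replicate 6, 5 of the 6 member calls held (3.48% of all genes were then called), and that of Rspo2 was lost. The part of these cell types and of proliferation in the Wnt results was not tested, and fewer cells of a type cannot be told apart from less RNA per cell.

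**Figure D1:**
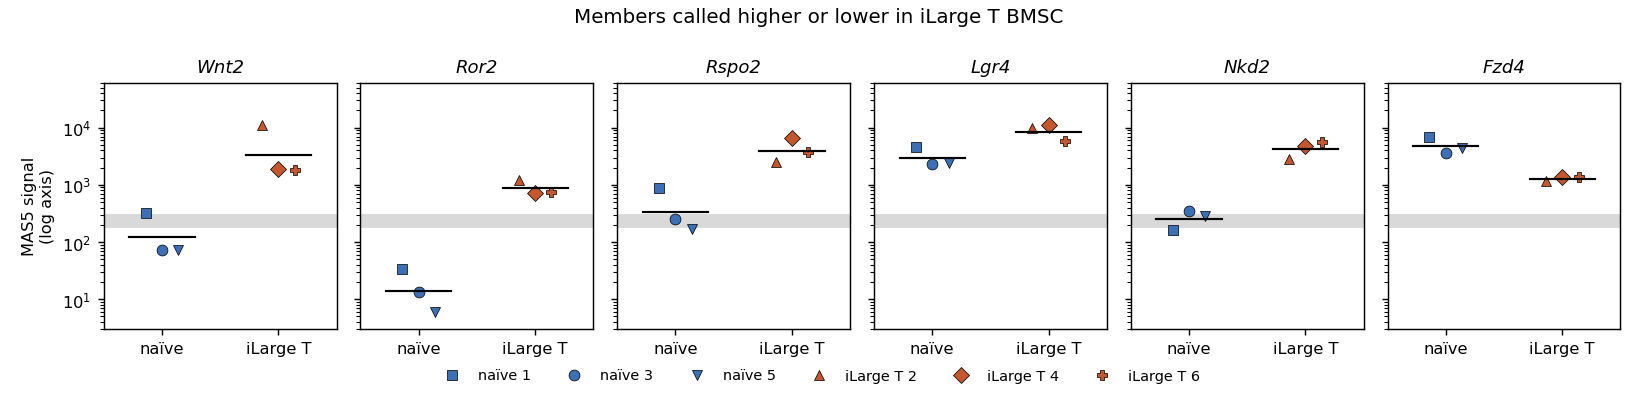
MAS5 signal (log axis) of the 6 called members on each array, naïve (blue) and iLarge T (orange), with a marker shape for each array, black lines at the geometric means and a grey band over the 40th percentiles of the arrays (182.5 to 299.6). The groups do not overlap in any panel, and the naïve arrays of Ror2 all lie under the band.

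Among the ligands, 1 of 16 was called (6.25%, beside 6.80% of all genes). This was Wnt2, which encodes a ligand best known in lung and placenta. The naïve arrays, in the order 1, 3 and 5, had signals of 328, 72.5 and 73.2. The iLarge T arrays, in the order 2, 4 and 6, had 11084, 1887 and 1789, and values of other genes follow in the same order. All iLarge T arrays were above all naïve arrays, and iLarge T replicate 2 stood far above the other two. Mean signals were 158 ± 147 in naïve and 4919.8 ± 5339 in iLarge T (SD, n = 3 each). On the log2 scale this was a rise of 4.80 (SE 0.85, limma adjusted p = 0.0120). Without iLarge T replicate 2 it was 3.93 and no longer called (adjusted p = 0.0615). Without naïve replicate 1 it was called, but both remaining naïve arrays were near background, which means under the 40th percentile of the array, so that fold can be given only as at least 17.4.

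Wnt5a, the main ligand known to act through ROR2, was not called. Its signals were 219, 4099 and 3754 in naïve and 9043, 12423 and 9149.9 in iLarge T arrays. The groups did not overlap, and naïve replicate 1 was far under the other naïve arrays. Over the 6 arrays the difference was 2.75 on the log2 scale (SE 0.92, limma adjusted p = 0.142). Without naïve replicate 1 it was smaller, 1.36, but called (adjusted p = 0.00591). Of its 4 probe sets, the other bright ones gave 2.61 and 3.20, and all 4 were uncalled.

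Wnt4, a ligand of kidney and reproductive tract development, was not called over the 6 arrays and was called lower only without naïve replicate 1. Its signals were 59.1, 3297 and 4407 in naïve and 272, 741 and 968 in iLarge T. The overlap came from naïve replicate 1 alone, and the log2 fold change of -0.71 (SE 1.40, limma adjusted p = 0.864) became -2.72 without it (adjusted p = 0.00980). A dimmer, uncalled probe set of Wnt4 gave 221, 772 and 1248 in naïve and 1023, 660 and 76.3 in iLarge T arrays. Its groups overlapped also without naïve replicate 1, where its change was -1.40. Wnt9a had signals of 1693, 5318 and 5149.8 in naïve and 2009.7, 1797 and 1743 in iLarge T. Here too only naïve replicate 1 was as low as the iLarge T arrays. The log2 fold change was -0.96 (SE 0.44, limma adjusted p = 0.298), and -1.50 without that array (adjusted p = 0.00537). The ligands thus held members that were higher and members that were lower once this array was left out.

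Of the remaining brighter ligands, Wnt6 gave 166, 528 and 502 in naïve and 597, 751 and 688 in iLarge T arrays. These groups did not overlap, but the change of 0.94 on the log2 scale was not called (SE 0.62, limma adjusted p = 0.503). Wnt7b gave 711, 363 and 324 in naïve and 927, 932 and 614 in iLarge T arrays. Wnt11, whose product guides cell movements in the embryo, gave 508, 1305 and 1448 in naïve and 1348, 1084 and 240.4 in iLarge T arrays. Both of these overlapped between groups and neither was called. The other 9 ligands, Wnt1, Wnt2b, Wnt3, Wnt3a, Wnt5b, Wnt7a, Wnt10a, Wnt10b and Wnt16, had a mean log2 signal under the median of the arrays in both groups. The groups of Wnt1 did not overlap, at 10.1, 33.2 and 29.0 in naïve and 415, 159 and 92.0 in iLarge T arrays, but 5 of these 6 values were near background. With Rspo4 and Lgr5, these dim members had signals of 5.05 to 723.8 and limma adjusted p-values of 0.175 or more.

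**Figure D2:**
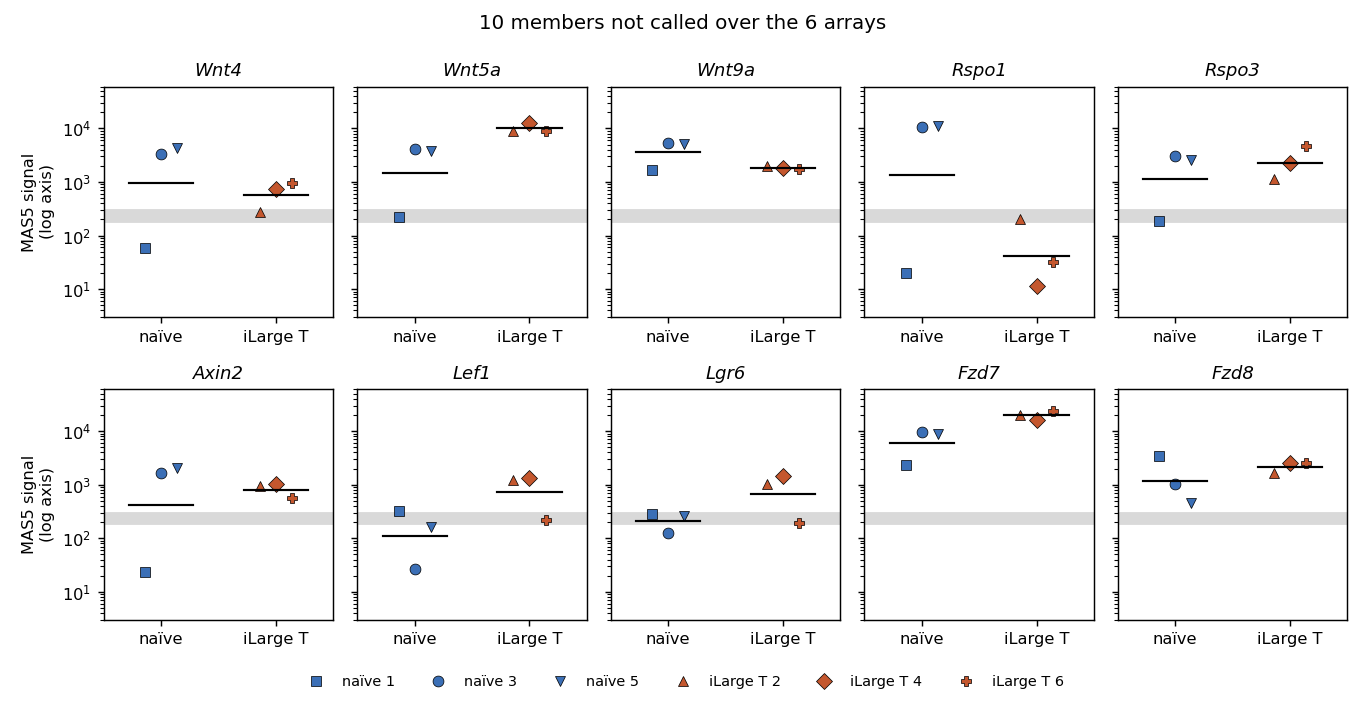
MAS5 signal (log axis) of 10 members that were not called over the 6 arrays, with colours, markers, lines and band as for the called members. For Wnt4, Wnt5a, Wnt9a, Rspo1, Rspo3, Axin2 and Fzd7, naïve replicate 1 (square) lies under the other naïve arrays, and for Fzd8, Lef1 and Lgr6 above them.

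Among the 9 Frizzled genes, 1 was called (11.1%, beside 6.80% of all genes), and it fell. Fzd4 encodes a receptor of retinal and brain vessels that also binds Norrin. Its signals were 6910.1, 3538 and 4325 in naïve and 1149.6, 1360.5 and 1353 in iLarge T arrays, or 4924 ± 1764 and 1288 ± 119.7 (SD, n = 3 each). Every iLarge T array was under every naïve array. Its log2 fold change was -1.88 (SE 0.33, limma adjusted p = 0.0119), which is 3.68-fold lower, and the call held without any 1 of the 6 arrays (adjusted p = 0.00727 to 0.0493). It was lost with limma without the trend (adjusted p = 0.110) and with the methods' t-test on log2 (0.113) or linear signals (0.264). Of its 3 probe sets 2 were called lower. The third, the most variable, had all iLarge T arrays near background, was at least 2.75-fold lower and was not called (adjusted p = 0.0927).

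Fzd7, a Frizzled known from embryonic and mesenchymal stem cells, moved the opposite way but was not called. Its signals were 2369, 9740.0 and 8949.8 in naïve and 19910.1, 16028 and 23609.9 in iLarge T arrays. All 3 iLarge T arrays were above all naïve arrays. Over the 6 arrays the change was 1.73 on the log2 scale (SE 0.48, limma adjusted p = 0.0793), and 1.07 without naïve replicate 1 (adjusted p = 0.0168). Fzd8 gave 3411, 1026 and 463 in naïve and 1645, 2489 and 2486 in iLarge T arrays. It overlapped because of naïve replicate 1, and its log2 fold change was 0.88 (SE 0.63, adjusted p = 0.544) over the 6 arrays and 1.65 without that array (adjusted p = 0.0365).

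The groups of 2 more Frizzled genes did not overlap. Fzd3, needed for axon guidance, gave 397, 335 and 492 in naïve and 1082, 690.0 and 789 in iLarge T arrays (log2 fold change 1.06, SE 0.49, limma adjusted p = 0.308). Fzd9 gave 34.9, 20.0 and 126 in naïve, all near background, and 817, 196 and 428 in iLarge T arrays, which is at least 1.87-fold higher (adjusted p = 0.137). Neither was called.

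The other Frizzled genes were not called on the brightest probe set of each. The 95% intervals of Fzd2, Fzd5 and Fzd6 reached past 2-fold. Fzd1 gave 6512, 8633 and 9687 in naïve and 6096, 11297 and 9533 in iLarge T arrays. Its log2 fold change of 0.09 had a 95% interval of -0.58 to 0.76. The groups overlapped, with the highest and the lowest array both in the iLarge T group. Fzd2 gave 14335, 7055 and 10061 in naïve and 6521, 7423 and 12620.0 in iLarge T arrays (log2 fold change -0.25, interval -1.01 to 0.52). Fzd5 gave 3218, 1273 and 1201 in naïve and 2112, 2232 and 1732 in iLarge T arrays (0.24, -0.70 to 1.19). Fzd6 gave 23053, 7158 and 7493 in naïve and 8218, 8358 and 6659 in iLarge T arrays (-0.48, -1.42 to 0.46). On these probe sets of Fzd2, Fzd5 and Fzd6 the groups overlapped, and naïve replicate 1 was the highest array. A second bright probe set of Fzd6 did not overlap, at 7883, 2640 and 3338 in naïve and 1623, 1869 and 2441 in iLarge T arrays. It was lower but not called (log2 fold change -1.08, SE 0.42, limma adjusted p = 0.210).

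**Figure D3:**
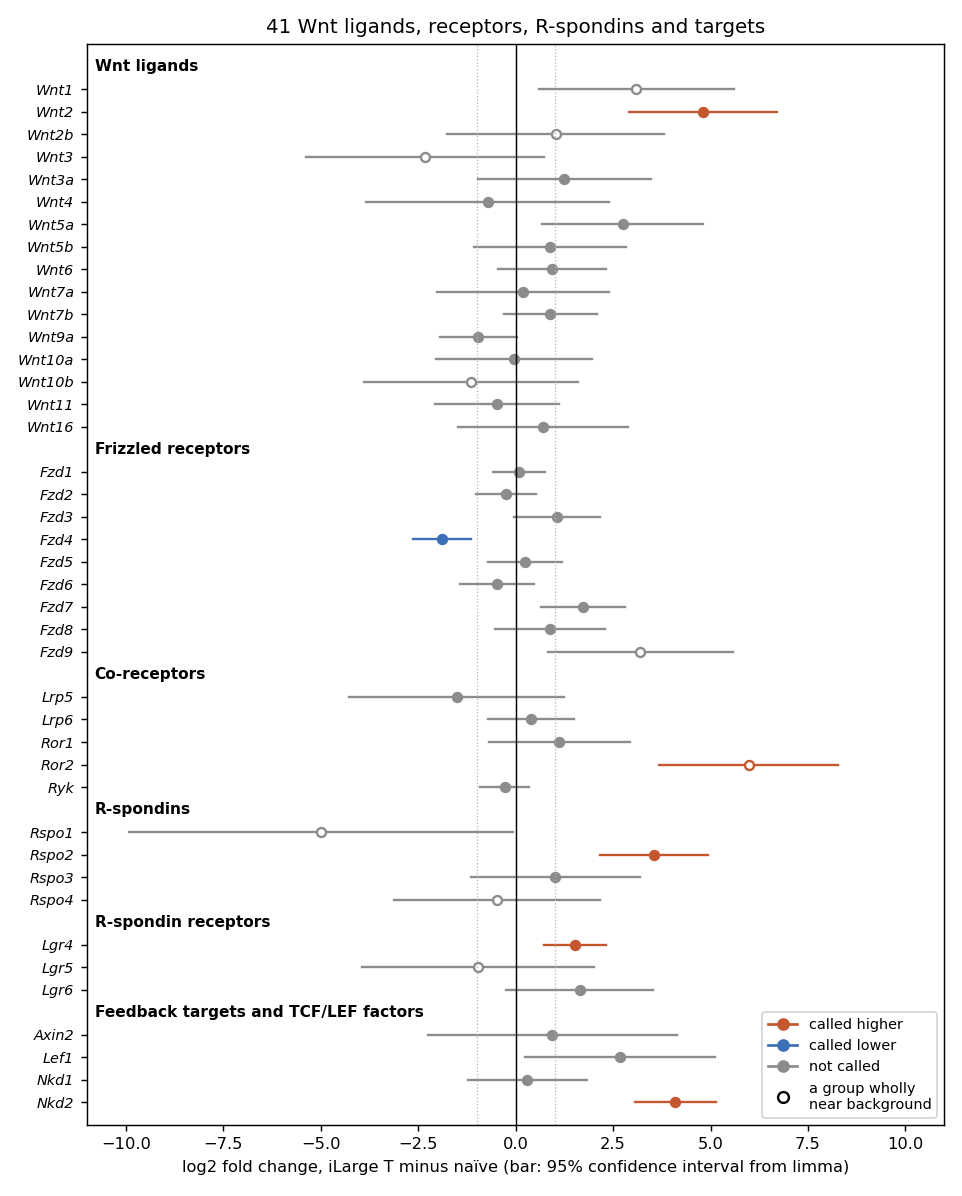
Log2 fold change (iLarge T minus naïve) of the 41 members by role, with 95% confidence intervals from limma as bars, called higher in orange, called lower in blue, uncalled in grey and dotted lines at 2-fold either way. Open circles are fitted values of members with a group wholly near background, such as Ror2 and Rspo1, whose size is not measured, and Fzd4 is the only member called lower.

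Ror2 was the only called gene among the 5 co-receptors and other Wnt receptors (20%, beside 6.80% of all genes). It encodes a receptor tyrosine kinase that takes up Wnt5a signals without beta-catenin. Its signals were 33.3, 13.2 and 5.87 in naïve and 1213, 728 and 743 in iLarge T arrays, or 17.5 ± 14.2 and 895 ± 276 (SD, n = 3 each). All naïve arrays were near background and all iLarge T arrays were above the 40th percentile. The fold is therefore a lower bound, at least 3.98-fold higher (limma adjusted p = 0.0105), and at least 3.37-fold to at least 4.51-fold with any 1 array left out. Without iLarge T replicate 2 or 4 the adjusted p was 0.0577 or 0.0510, past the threshold. A second probe set of Ror2 was near background on all 6 arrays.

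Its relative Ror1 was not called. Signals were 3819, 402 and 733 in naïve and 2925, 932 and 4275 in iLarge T arrays, so the groups overlapped (log2 fold change 1.12, SE 0.81, limma adjusted p = 0.551). Ryk, a receptor tyrosine kinase without kinase activity, overlapped between the groups and was not called. It gave 12418, 12358 and 18092 in naïve and 13250.2, 8360.4 and 13829 in iLarge T arrays, with a log2 fold change of -0.29 and a 95% interval of -0.92 to 0.35. Neither LRP co-receptor was called. Lrp5 gave 559, 1834 and 5044 in naïve and 68.8, 1208 and 2652 in iLarge T arrays. Lrp6 gave 1285, 3994 and 5441 in naïve and 3001, 4213 and 5048 in iLarge T arrays. Lrp5 varied widely within each group (log2 fold change -1.52, 95% interval -4.27 to 1.24), and the change of Lrp6 was 0.40 (-0.71 to 1.51). A second probe set of Lrp6 gave 1562, 1366 and 1558 in naïve and 715, 1453 and 771 in iLarge T arrays. It had the other sign, overlapped between groups and was not called (log2 fold change -0.68, limma adjusted p = 0.442).

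The R-spondins, secreted proteins that strengthen Wnt signals, showed different patterns for Rspo1, Rspo2 and Rspo3. Rspo2 rose. Its signals were 867, 257 and 171 in naïve and 2485, 6489 and 3792 in iLarge T arrays, or 432 ± 379 and 4255 ± 2042 (SD, n = 3 each). The lowest iLarge T array was above the highest naïve array. On the log2 scale the rise was 3.55 (SE 0.62, limma adjusted p = 0.0116), or 11.7-fold, and 4.23 without naïve replicate 1. The call was lost without iLarge T replicate 4 (adjusted p = 0.0736) or 6 (adjusted p = 0.0572). A dimmer probe set overlapped between groups (log2 fold change 1.21, adjusted p = 0.615).

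Rspo1 had signals of 19.9, 10556 and 11330.5 in naïve and 202, 11.5 and 31.6 in iLarge T arrays. It was thus bright on naïve replicates 3 and 5 and near background on naïve replicate 1 and on all iLarge T arrays. Over the 6 arrays it was at least 5.42-fold lower on average but not called (limma adjusted p = 0.276). Without naïve replicate 1 it was called (adjusted p = 0.00123), at least 44.3-fold lower.

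Rspo3 had signals of 184, 3099 and 2529 in naïve and 1141, 2221 and 4679 in iLarge T arrays. The log2 fold change of 1.01 (SE 0.97, limma adjusted p = 0.674) changed sign to -0.30 without naïve replicate 1, so no direction can be given. Rspo4 was near background on all 6 arrays.

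Of the LGR receptors for R-spondins, Lgr4 rose. Its signals were 4636, 2336 and 2436 in naïve and 9814, 10945 and 5836 in iLarge T arrays, or 3136 ± 1300.2 and 8865 ± 2683 (SD, n = 3 each). The groups did not overlap, with naïve replicate 1 and iLarge T replicate 6 nearest to each other. The rise was 1.52 on the log2 scale (SE 0.36, limma adjusted p = 0.0420), or 2.87-fold. This was the least stable call, lost without naïve replicate 3 (adjusted p = 0.173) or 5 (0.151), without iLarge T replicate 2 (0.142) or 4 (0.178), under quantile normalization (0.0506) and with each array centred on its median (0.0533).

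Lgr6 gave 287, 124 and 265 in naïve and 1008, 1453 and 194 in iLarge T arrays. On iLarge T replicate 6 it was at the naïve level, and it was not called (log2 fold change 1.64, SE 0.85, limma adjusted p = 0.363). Lgr5, a stem cell marker of the intestine, was dim, and neither of its 2 probe sets, each with 1 group wholly near background, was called.

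Among the feedback targets and TCF/LEF factors, Nkd2 had the lowest adjusted p of the 41 members. It encodes an inhibitor that binds Dishevelled. Its signals were 159, 343 and 281 in naïve and 2845, 4743 and 5661 in iLarge T arrays, or 261 ± 93.7 and 4416 ± 1436 (SD, n = 3 each). All iLarge T arrays stood well above all naïve arrays. Nkd2 rose by 4.09 on the log2 scale (SE 0.46, limma adjusted p = 0.00151), or 17.1-fold, with adjusted p = 0.000314 to 0.0159 when any 1 array was left out. The methods' t-test gave adjusted p = 0.0740 on log2 and 0.171 on linear signals. Of its 4 probe sets, 3 were called higher, and the fourth was higher without overlap but uncalled (log2 fold change 1.41, adjusted p = 0.195).

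Axin2, the target most widely used as a readout of beta-catenin signalling, was not called. Its signals were 23.1, 1626 and 2035 in naïve and 937, 1008 and 567 in iLarge T arrays. Naïve replicate 1 was far under all other arrays, while naïve replicates 3 and 5 were above all iLarge T arrays. The log2 fold change was 0.94 (95% interval -2.26 to 4.13, limma adjusted p = 0.815), and it changed sign to -1.16 without naïve replicate 1 (adjusted p = 0.114). No direction can therefore be given. A second, dimmer probe set gave 27.2, 337 and 407 in naïve and 27.7, 47.3 and 177 in iLarge T arrays, the latter all near background. It was uncalled, with a fitted log2 fold change of -1.34 over the 6 arrays and -2.59 without naïve replicate 1, whose size is not measured.

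Lef1, a TCF/LEF factor, gave 325, 26.4 and 162 in naïve and 1219.7, 1347 and 224 in iLarge T arrays. As for Lgr6, iLarge T replicate 6 was at the naïve level, and the log2 fold change of 2.68 was not called (SE 1.09, limma adjusted p = 0.231). A dimmer probe set of Lef1 gave 170, 161 and 178 in naïve and 163, 778 and 106 in iLarge T arrays. Only iLarge T replicate 4 was above background there, and it was not called (adjusted p = 0.860). Nkd1, the relative of Nkd2, gave 587, 176 and 347 in naïve and 577, 309 and 376 in iLarge T arrays. These overlapped (log2 fold change 0.30, 95% interval -1.23 to 1.83). Of the 4 measured feedback targets and TCF/LEF factors, 1 was called (25%, beside 6.80% of all genes), a share that rests on few genes.

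**Figure D4:**
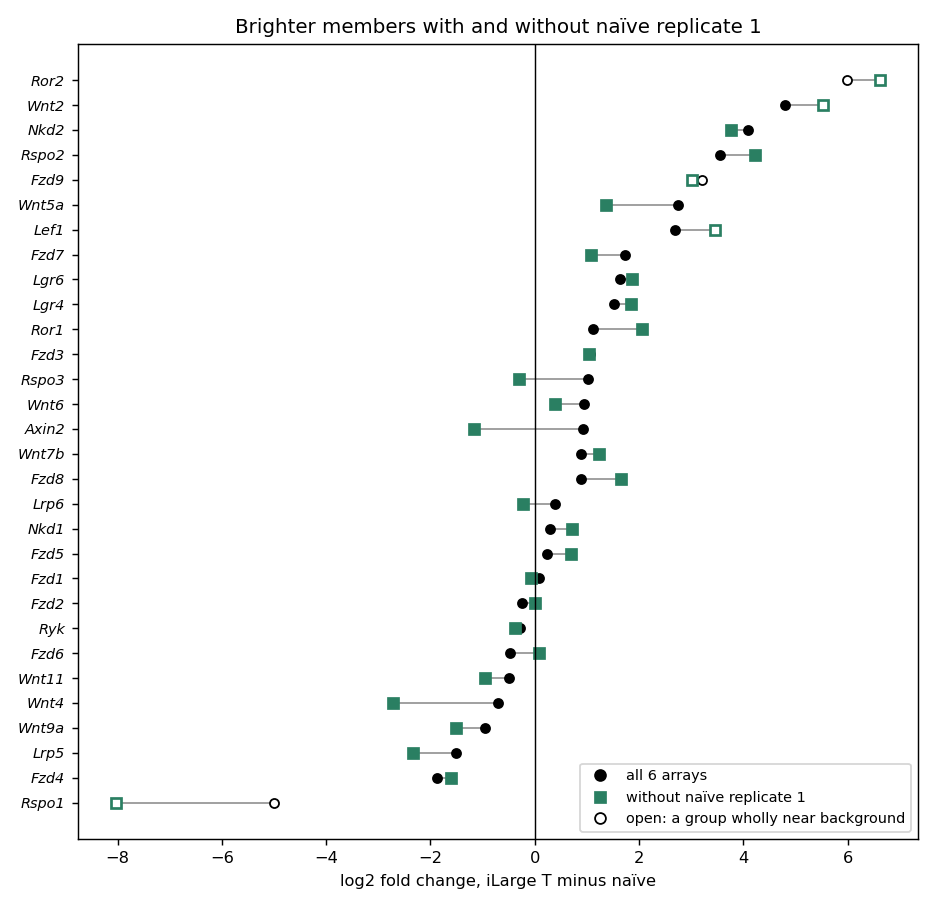
Log2 fold change (iLarge T minus naïve) of the 30 members whose mean log2 signal reached the median of the arrays in either group, over all 6 arrays (black circles) and without naïve replicate 1 (green squares), joined by grey lines. Axin2 and Rspo3 are among those that cross 0, and open symbols are fitted values with a group wholly near background, such as those of Rspo1, whose size is not measured.

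How far the calls rest on naïve replicate 1 was seen by leaving it out. The 6 members called over all arrays were then called too, and Wnt5a, Fzd7, Fzd8, Rspo1, Wnt4 and Wnt9a were added, giving 8 higher and 4 lower members. Over all genes 13.8% were then called, 7.13% higher and 6.67% lower. The sign of the change turned for 9 of the 41 members, none of which was called either way. With iLarge T replicate 6 left out as well, a setting chosen after the data were seen, 8 members were higher and 4 lower, with Lef1 (at least 6.66-fold higher, limma adjusted p = 0.0322) and Lgr6 (log2 fold change 2.74, adjusted p = 0.0340) called and Fzd7 and Fzd8 not. In that setting 13.9% of all genes were called, 6.66% higher and 7.26% lower.

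The other genes of the pathway were taken from 9 lists by role, in which 72 of 73 genes were measured. Of these, 9 were called higher and 1 lower, which is 13.9% beside 6.80% of all genes, and the calls lay in 3 lists. Of 13 secreted antagonists, proteins that hold Wnts or block their receptors, 4 were higher and 1 was lower. Wif1, a Wnt-binding inhibitor, had signals of 17.1, 2.61 and 1.86 in naïve and 925, 2779 and 636 in iLarge T arrays. Dkk2, a ligand of LRP co-receptors, had 9.59, 96.8 and 25.5 in naïve and 8934, 6141 and 4122 in iLarge T arrays. All naïve arrays of both were near background, so Wif1 was at least 5.39-fold and Dkk2 at least 27.9-fold higher (limma adjusted p = 0.00630 and 0.00133). Dkk3, a relative of the Dickkopf inhibitors, had 503, 377 and 120.0 in naïve and 7641, 4814 and 20899 in iLarge T arrays (log2 fold change 5.01, SE 0.65, adjusted p = 0.00289). Sfrp2, a Frizzled-like decoy, fell, from 33646, 9737 and 11766 in naïve to 486, 3057 and 232 in iLarge T arrays (-4.48, SE 0.83, adjusted p = 0.0146). Its relative Sfrp1 rose (2.61, SE 0.47, adjusted p = 0.0123), while the best known Dickkopf, Dkk1, was dim and uncalled. Antagonists and ligand or receptor genes were therefore called higher on the same arrays. The calls of Sfrp1 (without naïve replicate 3, iLarge T replicate 2 or 4, adjusted p up to 0.0803) and Sfrp2 (without iLarge T replicate 2 or 6, up to 0.0770) did not hold.

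Of 10 further genes known as beta-catenin targets in other cells, 4 were called higher and 0 lower (40%, beside 6.80% of all genes). They were Fosl1, an AP-1 factor (log2 fold change 5.27, SE 0.63, limma adjusted p = 0.00198), Ccnd1, the G1 cyclin D1 (3.26, SE 0.55, adjusted p = 0.00998), Cd44, a hyaluronan receptor (2.04, SE 0.45, adjusted p = 0.0305), and Ccn4, a matrix protein (1.91, SE 0.37, adjusted p = 0.0192). Ccnd1 rose in the same arrays in which 7 of 7 proliferation genes fell. Myc, another such target, was not called (-0.15, 95% interval -0.73 to 0.44). Kremen1, a Dickkopf receptor, was the 1 call of the 3 surface inhibitors and Dickkopf receptors (1.29, SE 0.30, adjusted p = 0.0394). The calls of Cd44, Ccn4 and Kremen1 were lost without any 1 of the 5 arrays other than naïve replicate 1 (adjusted p = 0.0526 to 0.154), and that of Ccnd1 without iLarge T replicate 2 or 4 (0.0595 and 0.0525).

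The core of the pathway inside the cell held no calls, beside 6.80% of all genes called and 4011 of 18193 (22.0%) at an unadjusted limma p under 0.05. In the list of the beta-catenin destruction complex, which also holds beta-catenin and the Dishevelled genes, 0 of 13 genes passed, with 2 at that unadjusted p. Among the nuclear partners of beta-catenin 0 of 13 passed, with 1 such gene. Without naïve replicate 1, Apc was called higher, and Dvl2 and the nuclear partner Tle4 lower. These calls were also made with iLarge T replicate 6 left out as well. In those settings 13.8% and 13.9% of all genes were called. The gene for beta-catenin itself, Ctnnb1, gave 91634, 70829.5 and 61849 in naïve and 88259.5, 79346 and 70835 in iLarge T arrays, with a log2 fold change of 0.10 and a 95% interval of -0.45 to 0.65. Of 10 planar cell polarity genes, which act with ROR2 and the Frizzleds in orienting cells, 0 were called, with 2 at an unadjusted p under 0.05. The methods' t-test called none of these genes either. Of the Wnt secretion genes, Wls gave 60174, 29851 and 27139.7 in naïve and 92493, 67746 and 71255 in iLarge T arrays. These did not overlap, but the change of 1.07 was not called over the 6 arrays (SE 0.32, limma adjusted p = 0.105). Wls was called higher without naïve replicate 1 (log2 fold change 1.43) and with signals raised to the 40th percentile.

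**Figure D5:**
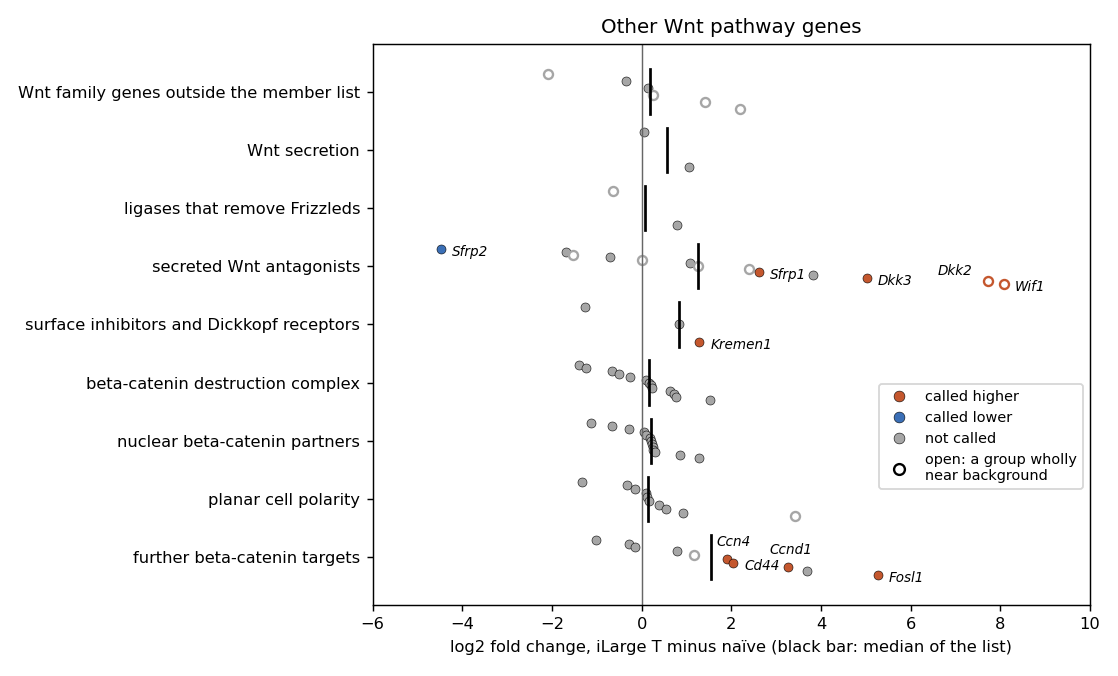
Log2 fold change (iLarge T minus naïve) of the 72 other Wnt pathway genes, 1 point per gene in 9 lists, called higher in orange, called lower in blue and uncalled in grey, with a black bar at the median of each list. Named genes are those called, and open circles such as Wif1 and Dkk2 are fitted values with a group wholly near background, whose size is not measured.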

How the data were processed

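RNA of 3 naïve and 3 iLarge T BMSC pools was hybridized to Affymetrix Mouse Genome 430 2.0 arrays. The authors deposited MAS5 intensity signals on a linear scale, 1 per probe set, scaled so that the trimmed mean is 2500 on each array. Such signals subtract a mismatch estimate, so dim values are noisy on the log scale. Detection calls are not used here. Signals under the 40th percentile of their array (182.5 to 299.6) were regarded as near background. Against a group wholly under it the report gives the fold as a lower bound, from the mean log2 signals with each dim array raised to its percentile, and figures and counts use the fitted values. With 3 arrays a group, precision is low.

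From 45101 probe sets, 64 controls were removed. The annotation gives 1 gene symbol for 34945 of the remaining 45037, several for 932 and none for 9160, and genes were named from the first kind only. RefSeq held 34741 of these by gene identifier, and 0 symbols changed. For a gene with several probe sets, the one brightest on average (log2) was taken.

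Log2 signals were tested, 2-sided, with lmFit and eBayes (trend = TRUE) of limma 3.58.1 under R 4.3.3. The p-values were adjusted by Benjamini-Hochberg over the 45037 probe sets. Called genes had adjusted p under 0.05 and changed 2-fold or more, the thresholds of the study. The code was tested on simulated data. Python 3.11.15 was used for tables and figures (pandas 2.3.3, numpy 2.4.6, matplotlib 3.10.9 and, for statistics, scipy 1.17.1).

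The members and gene lists were chosen with earlier results of these data known, and list counts are descriptions. Signals on each array are given for every member that was called, that did not overlap with a group above the 40th percentile, or whose mean log2 signal in either group reached the median of the array medians (360.8), and up to 4 called genes are named per other list. Beside the main setting, these were tried: the t-test of the methods on log2 and on linear signals, limma without the trend, quantile normalization, median centring, a filter on dim probe sets, raising signals to the 40th percentile, adding 16 before log2, 2 other ways to choose a probe set, other thresholds and leaving out each array. After the data were seen, leaving out naïve replicate 1 and iLarge T replicate 6 together was added. Promoter windows came from RefSeq, and 12 measured members have none here.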

Additional observations from a re-analysis of the deposited data

How the results depend on the processing

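No paired analysis was possible because the groups share no replicate numbers and no label pairs their arrays. Over the alternatives for the members (811 in all), 715 changes kept their direction and side of the threshold, 33 lost a call, 16 gained one and 47 changed sign. The sign of no called member changed. Leaving out 1 array gave 2 to 8 members higher and 1 to 4 lower, 4 to 13 other pathway genes higher and 0 to 3 lower, and 250 to 1298 genes higher and 232 to 1214 lower over all genes (644 and 593 with all arrays). Leaving out naïve replicate 1 gave the highest of these counts. With naïve replicate 1 and iLarge T replicate 6 both left out, which was chosen after the data were seen, the counts were 8 and 4 members, 14 and 4 other pathway genes, and 1211 and 1321 genes. The cause of these differences was not tested.

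After Benjamini-Hochberg adjustment, the methods' t-test on log2 signals called 0 members higher and 0 lower, 0 and 0 other pathway genes, and 7 and 7 genes. On linear signals it called 0 and 0 members, 1 and 0 other pathway genes (Kremen1), and 17 and 36 genes. The study reported many more changed genes with an unpaired t-test at these thresholds, and its count was not reproduced here. At an unadjusted p under 0.05 and 2-fold the t-test as rerun here gave 8 members higher and 1 lower on log2 signals, 7 and 1 on linear signals, and limma gave 10 and 2, beside 2344, 2068 and 3090 of all 18193 genes in either direction. limma without the intensity trend called 2 members higher (Nkd2 and Ror2) and 0 lower, 2 and 0 other pathway genes, and 85 and 48 genes. Centring on the median shifted the median of all genes by -0.19 on the log2 scale and gave 410 genes higher. Raising signals to the 40th percentile shifted it by 0.12 and gave 971 genes higher, 7 members higher (with Fzd7 and Wnt5a), 2 lower (with Rspo1) and 2 other pathway genes lower. The most variable probe set gave 4 members higher and 0 lower (without Lgr4 and Fzd4), the mean of all probe sets gave 2 higher and 1 lower (without Ror2, Rspo2 and Lgr4), and an adjusted p under 0.10 added Fzd7 and gave 2 other pathway genes lower. Quantile normalization, median centring and a 3-fold threshold each lost Lgr4 alone.

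None of the members whose sign changed was called in that setting, and for those near background the values are fitted and their size is not measured. On linear signals the log2 fold change was 0.29 for Wnt10a and -0.55 for Axin2. With median centring it was -0.016 for Wnt7a and -0.10 for Fzd1. With raised signals it was 0.15 for Wnt3, 0.50 for Wnt10a, 0.17 for Rspo4, 0.035 for Lgr5 and -0.27 for Axin2. With the most variable probe set it was -1.05 for Wnt7a, -0.48 for Fzd5 and 2.80 for Lgr5. With the mean of all probe sets it was -0.35 for Wnt7a, -0.12 for Fzd5, -0.14 for Lrp6, 0.92 for Lgr5 and -0.20 for Axin2. With both arrays left out it was -0.13 for Wnt16, -0.14 for Fzd1, 0.18 for Fzd6, -0.39 for Lrp6, -0.81 for Rspo3, 0.58 for Rspo4 and -0.90 for Axin2. With 1 array left out at a time it ranged from -1.16 to 2.07 for Axin2, -0.10 to 0.35 for Fzd1, -0.53 to 0.010 for Fzd2, -0.0075 to 0.70 for Fzd5, -0.77 to 0.073 for Fzd6, -1.86 to 0.10 for Lgr5, -2.58 to 0.050 for Lrp5, -0.22 to 0.82 for Lrp6, -0.15 to 0.72 for Nkd1, -0.30 to 1.74 for Rspo3, -1.22 to 0.070 for Rspo4, -0.53 to 0.82 for Wnt10a, -0.96 to 0.29 for Wnt11, -0.10 to 1.24 for Wnt16, -2.72 to 0.39 for Wnt4 and -0.63 to 0.90 for Wnt7a. Signals near background limit what can be said of the 11 dim members.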
